A study of Homo sapiens with 48 samples.

Results

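At 3 h after the reaction, cells that had gone through T-REX (photocaged probe and then light) were compared with cells given only DMSO, the solvent of the probe. The comparison rests on 8 of the 48 libraries of the series, 4 T-REX and 4 DMSO, and on all 14685 genes of the 3 h count table. The cells were HEK293T, a line derived from human embryonic kidney, and the labels give them as wild type. In every arm, DMSO included, the cells carried a plasmid for wild-type NCBP1 fused to Halo, a protein tag that binds the probe covalently, so the comparison is between 2 states of cells that overexpress NCBP1. The T-REX arm received Ht-PreHNE(alkyne) at 15 µM for 2 h, rinses that remove unbound probe, and light that frees 4-hydroxynonenal (HNE) beside NCBP1. The DMSO arm received neither probe nor light. T-REX and DMSO therefore differ in the probe, in the light and in the freed HNE together, and these cannot be told apart within this comparison. Libraries with light alone and with probe alone, 4 of each at 3 h, entered the same fit and are set beside the results where they bear on them. The series describes the 4 replicates of each arm as independent.

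HNE is a reactive aldehyde made when membrane lipids are oxidized, and it attaches to nucleophilic side chains such as cysteine. NCBP1 forms the nuclear cap-binding complex with NCBP2, and the pair holds the cap of new RNA polymerase II transcripts and connects them to splicing, 3′ end processing, export, decay and the first rounds of translation. Cells under translational or folding stress use a small set of transcription factors to change mRNA levels. ATF4 is translated when the initiation factor eIF2 is phosphorylated and drives genes for amino acid supply, while XBP1 and ATF6 drive genes for folding and degradation in the endoplasmic reticulum (ER). HEK293T cells are also known for neuronal and developmental transcripts, and the libraries held them: NEFL was at 39.1 CPM in the T-REX and 44.3 CPM in the DMSO libraries on average and INA at 49.1 and 54.7 CPM. The filament gene VIM was at 494 and 493 CPM and the epithelial keratin KRT18 at 10.4 and 8.35 CPM, none of these markers was called, and the kidney marker PAX2 was not analysed here. Throughout, CPM are read counts scaled to a common library size with TMM factors.

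Some promoters of the genes described below carry short DNA elements of known factors, and they are shown because the members of these groups are described together. Sequences are RefSeq promoter windows of GRCh38.p14, which run from 250 bases before to 50 bases after an annotated start, and 10447 of the tested genes matched a window by symbol. Each line gives the strand of the gene from 5′ to 3′ with 30 bases on either side of the element, and the element is in capitals. The first 3 hold the ATF4 composite element, searched as TGATGNAAN on both strands. ASNS (asparagine synthetase, chr7:97872438-97872506, minus strand) has it on the strand of the gene, 68 bases before the start. CHAC1 (chr15:40953231-40953299, plus strand) and HERPUD1 (chr16:56931935-56932003, plus strand) have it on the opposite strand, 210 and 177 bases before the start.
ASNS: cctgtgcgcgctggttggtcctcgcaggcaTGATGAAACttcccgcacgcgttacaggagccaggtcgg
CHAC1: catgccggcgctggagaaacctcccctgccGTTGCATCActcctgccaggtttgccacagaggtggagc
HERPUD1: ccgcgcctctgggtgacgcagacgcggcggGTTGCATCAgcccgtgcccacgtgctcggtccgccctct
The element was present in 2.67% of the 10447 tested genes with a window and in 3.61% of all 35116 windows. It was present in 9 of the 144 windows of genes that rose (6.25%), which also include SLC1A4, MTHFD1L and CREB3L2, and in 13 of the 544 windows of genes that fell (2.39%). CREB3L2 has it 16 bases after the second of its 2 annotated starts and not in the window of the first. Of 22 ATF4 regulators and targets with a window, 5 held it, and of these CARS1, JDP2, CEBPG and ATF3 did not pass the test. The amino acid enzymes BCAT1 and GOT1 also hold it and did not pass. A match describes the letters of the window and does not show that a factor binds there.

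The next pair hold the ER stress element, CCAAT and CCACG with 9 bases of any kind between them. XBP1 (chr22:28800573-28800651) and HSPA5 (chr9:125241361-125241439), both on the minus strand, have it 52 and 66 bases before the start.
XBP1: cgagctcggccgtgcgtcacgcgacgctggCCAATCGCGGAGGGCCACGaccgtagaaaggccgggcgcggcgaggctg
HSPA5: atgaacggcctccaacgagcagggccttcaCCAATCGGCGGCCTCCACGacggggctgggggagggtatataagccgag
Of the 10447 tested genes with a window, 15 held this element (0.144%), and 8 of the 31 ER stress genes with a window did. XBP1 and HSPA5 were the members of those 8 that rose, while HSP90B1, CALR, CANX, PDIA6, CRELD2 and ERO1B have the element and did not pass the test. The last pair stand for genes that fell. TXNIP (chr1:145996621-145996697, minus strand) carries a carbohydrate response element, CACGNG and CACGNG with 5 bases of any kind between them, which was found in 20 of 35116 windows. DNAJB1 (chr19:14518407-14518504, minus strand, the second of its 3 annotated starts) has 2 copies of GAANNTTC, the core of the heat shock element and the same on both strands, which was present in 6.77% of all windows.
TXNIP: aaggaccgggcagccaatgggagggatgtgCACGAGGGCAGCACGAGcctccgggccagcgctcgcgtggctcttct
DNAJB1: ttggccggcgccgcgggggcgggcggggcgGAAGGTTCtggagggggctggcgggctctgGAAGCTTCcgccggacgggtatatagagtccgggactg

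At 3 h more genes fell than rose, and most changes were small. A gene is called when its Benjamini-Hochberg adjusted p in edgeR's quasi-likelihood test is at most 0.05. Of the 14685 genes, 880 were called (5.99%), with 213 higher in T-REX (1.45%) and 667 lower (4.54%). Genes that rose did so by a median of 0.42 on the log2 scale, and those that fell had a median size of 0.24. Of the called genes, 7 exceeded a size of 1, 87 exceeded 0.5 and 404 stayed under 0.25. The median log2 fold change of all genes was 0.03. For 1745 genes (11.9%) the 4 T-REX values and the 4 DMSO values did not overlap, and 772 of the 880 called genes were among them.

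The balance of higher and lower calls moved with the scaling of the libraries. It was 75.8% lower with TMM factors, 62.5% lower with upper-quartile factors (645 called) and 42.9% lower when libraries were scaled by their totals without NCBP1 (629 called). It was 59.3% lower without T-REX replicate 3 (922 called), 56.5% lower with the deposited RUV factors as covariates and 87.2% lower when only the T-REX and DMSO libraries were fitted. Leaving out DMSO replicate 1, 2 or 4 gave 295, 318 and 388 called genes, and leaving out T-REX replicate 4 gave 458. Across the 16 fits that leave out 1 library each, 231 genes stayed called, 30 higher and 201 lower. The called genes given below were among these 231 unless stated. Of those, MANF, MTHFD1L, STC2, MXI1, DNAJB1, CHORDC1, SIX4, SOX4, BMPR1A, SPRY1, KIT, E2F3, ANLN, EIF3F, PABPC1, SLC39A10, TP53I3 and TENT4B lost their call when only the T-REX and DMSO libraries were fitted.

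**Figure D1:**
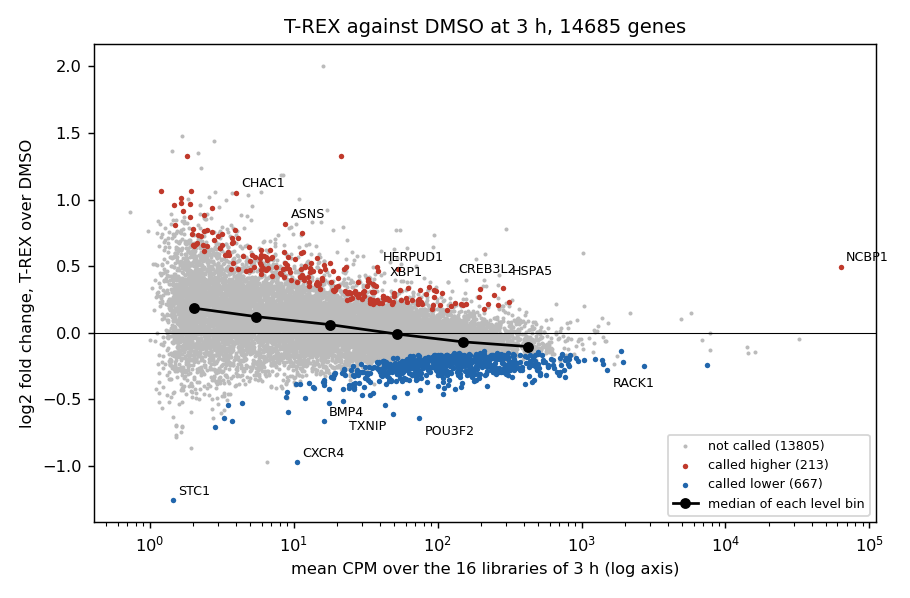
Log2 fold change of T-REX over DMSO at 3 h (y axis) against the mean CPM over the 16 libraries of 3 h (log x axis), 1 point per gene, with 213 genes called higher in red, 667 called lower in blue and the median of each level bin in black. The black medians run from 0.18 at the lowest levels to -0.10 at the highest, and the blue points lie at higher levels than the red ones.

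**Figure D2:**
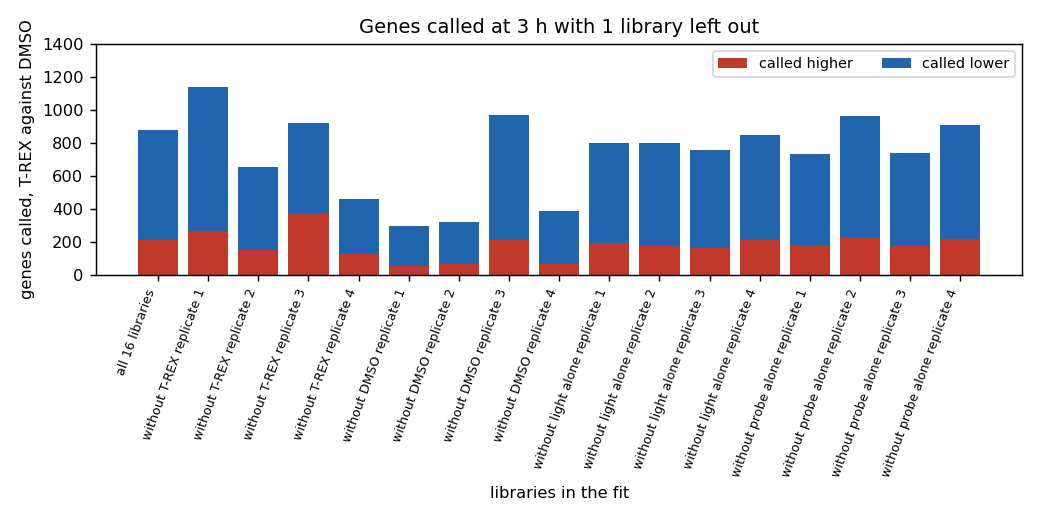
Number of genes called in T-REX against DMSO at 3 h (y axis, bars start at 0) with all 16 libraries and with each library left out in turn (x axis), higher calls in red and lower calls in blue. The count ranges from 295 without DMSO replicate 1 to 1137 without T-REX replicate 1.

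Library totals were 23952455 to 28997821 counts in the T-REX arm and 28328178 to 29747193 in the DMSO arm, and every gene had at least 2 counts in each library of 3 h. The T-REX libraries differed more among themselves than the DMSO libraries, with a median SD over genes of 0.123 against 0.0833 on the log2 CPM scale. Counts of every pair of replicates in both arms differed by more than sampling noise, with a chi-square of 4.76 to 46.5 per degree of freedom, so each library counted as 1 replicate. Of 8 marker genes of other tissues, COL1A1 was in the table at 3.73 CPM in T-REX and 3.25 CPM in DMSO, and the others were not analysed here. In bulk libraries fewer cells with a transcript and less of it per cell cannot be told apart.

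NCBP1 itself (ENSG00000136937), whose counts come from the plasmid and from the chromosomal gene without separating them, was the most abundant called transcript. It was at 91280, 75022, 78770 and 55428 CPM in the T-REX libraries and at 52042, 45659, 61301 and 53979 CPM in the DMSO libraries. The lowest T-REX library lay below the highest DMSO library, so the groups overlapped. The log2 fold change was 0.50 ± 0.12 (SE) with an adjusted p of 0.0290. The call was lost without T-REX replicates 2 or 3 or DMSO replicates 1, 2 or 4, with adjusted p up to 0.0927. NCBP1 took 5.85% to 8.99% of all counts in the T-REX libraries and 4.56% to 6.10% in the DMSO libraries, and the part of this in the other results was not tested beyond the scaling without NCBP1 given above.

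The partners of NCBP1 changed little. Of 22 genes for the cap-binding complex and proteins that bind it, NCBP1 was the 1 that rose and KPNA2 and DCP2 fell, with a median log2 fold change of 0.07 against 0.03 for all genes. NCBP2, the subunit that grips the cap, was at 34.7, 33.7, 37.3 and 33.5 CPM in T-REX and at 33.5, 33.8, 31.4 and 33.0 CPM in DMSO. These values overlapped, and the log2 fold change of 0.08 ± 0.058 did not pass the test. KPNA2, an importin that carries the complex into the nucleus, lost its call without DMSO replicate 2 (adjusted p = 0.0556), and the decapping enzyme DCP2 lost its call without T-REX replicates 3 or 4 or DMSO replicates 1, 2 or 4 (up to 0.103). Among 18 genes of the TREX export complex 1 fell, FYTTD1, with adjusted p up to 0.0861 without T-REX replicate 4 or DMSO replicates 1, 2 or 4. Among 22 genes of the nuclear exosome and the factors that target it 1 fell, TENT4B, and among 21 genes of nonsense-mediated decay none was called. RPS6KB1, the kinase that phosphorylates ribosomal protein S6, had a log2 fold change of -0.14 ± 0.062, SF3A1 of the U2 particle 0.07 ± 0.068 and the export factor THOC7 0.23 ± 0.086, and none of these passed the test.

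Genes of amino acid supply that ATF4 is known to drive rose for a few members, while ATF4 itself and its targets DDIT3, TRIB3, DDIT4 and ATF3 did not pass the test. ASNS (ENSG00000070669), which makes asparagine, was at 12.8, 11.2, 12.4 and 13.97 CPM in T-REX and at 8.75, 6.81, 6.86 and 6.17 CPM in DMSO. Every T-REX library lay above every DMSO library, and the log2 fold change was 0.82 ± 0.13 (adjusted p = 0.00132). SLC1A4, a neutral amino acid transporter, was at 34.7, 39.0, 40.1 and 41.0 CPM against 30.3, 28.97, 29.7 and 29.96 CPM. The groups did not overlap, and the gene rose by 0.38 ± 0.066 on the log2 scale (adjusted p = 0.00244). MTHFD1L, a mitochondrial enzyme of one-carbon metabolism, rose from 68.7 ± 2.45 to 81.4 ± 2.88 CPM (SD, n = 4), a log2 fold change of 0.25 ± 0.050 with an adjusted p of 0.00743. YARS1, which charges tyrosine onto its tRNA, rose from 185 ± 7.13 to 223 ± 14.6 CPM and was the member of 21 cytosolic synthetase genes that rose. PHGDH, the entry enzyme of serine synthesis, and PSAT1, the next enzyme, had log2 fold changes of 0.27 ± 0.082 and -0.05 ± 0.068 and did not pass the test (adjusted p = 0.0568 and 0.714).

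Of 28 regulators and targets of ATF4, 4 rose and 1 fell, 22 had a log2 fold change above 0, and the median was 0.21. For all genes 57.2% were above 0. With a library left out, 1 to 8 of the 28 were called higher, with the fewest without DMSO replicates 1, 2 or 4, and none was called higher when only the T-REX and DMSO libraries were fitted. CHAC1, an enzyme that breaks down glutathione, was at 4.25, 4.52, 7.95 and 7.68 CPM in T-REX and at 2.44, 2.26, 3.58 and 3.48 CPM in DMSO. The groups were separate, and the log2 fold change of 1.05 ± 0.28 had an adjusted p of 0.0343. That call was lost without T-REX replicates 3 or 4 or DMSO replicates 1, 2 or 4, with adjusted p up to 0.114. STC2, a secreted glycoprotein, rose from 146 ± 5.49 to 168 ± 1.11 CPM (adjusted p = 0.0104). EIF2AK3, the eIF2 kinase of the ER also called PERK, rose by 0.25 ± 0.060 (adjusted p = 0.0177, lost without DMSO replicates 1, 2 or 4, up to 0.0619). PPP1R15A, which brings a phosphatase back to eIF2, rose by 0.25 ± 0.072 (adjusted p = 0.0431). Its call was lost without T-REX replicates 3 or 4, DMSO replicates 1, 2 or 4, light alone replicates 2 or 3 or probe alone replicates 1 or 3, with adjusted p up to 0.153.

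The eIF2 kinase of the heme response moved the other way. EIF2AK1 was at 215, 213, 214 and 201 CPM in T-REX and at 245, 245, 262 and 247 CPM in DMSO, with no overlap, and fell by 0.25 ± 0.043 on the log2 scale (adjusted p = 0.00228). ATF4 mRNA itself had a log2 fold change of 0.09 ± 0.056, DDIT3 (CHOP) of 0.00 ± 0.16, TRIB3 of -0.01 ± 0.098 and DDIT4 of -0.02 ± 0.17, and their T-REX and DMSO values overlapped. SESN2 at 0.24 ± 0.073 (adjusted p = 0.0555) and ATF3 at 0.25 ± 0.079 (adjusted p = 0.0703) also overlapped and did not pass.

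Genes of ER folding and degradation rose for 8 of 34 members and fell for none, with 27 of the 34 above 0 and a median of 0.16. With a library left out, 5 to 10 of them were called higher (fewest without DMSO replicate 1), and 4 when only the T-REX and DMSO libraries were fitted. The list median was 0.11 for probe alone against DMSO and 0.07 for T-REX against probe alone. Light alone against DMSO gave -0.008 and T-REX against light alone 0.10. HERPUD1 (ENSG00000051108), which helps to degrade misfolded ER proteins, was at 47.5, 41.3, 44.5 and 47.96 CPM in T-REX and at 32.6, 31.7, 31.5 and 32.6 CPM in DMSO. The DMSO values lay within a narrow band that no T-REX library touched, and the log2 fold change was 0.50 ± 0.072 (adjusted p = 0.00104). CREB3L2, an ER membrane transcription factor, was at 232, 229, 224 and 223 CPM against 175, 178, 185 and 186 CPM. Both groups were tight and separate, and the gene rose by 0.33 ± 0.048 (adjusted p = 0.00104). XBP1 (ENSG00000100219) was at 106, 103, 108 and 99.8 CPM against 88.1, 79.1, 77.6 and 83.4 CPM and rose by 0.34 ± 0.053 (adjusted p = 0.00132). Its processed pseudogene XBP1P1, at 2.57 ± 0.456 against 1.31 ± 0.261 CPM, also rose (adjusted p = 0.0133, 0.0580 without DMSO replicate 1), and reads of the pair may be split between them, so the value of XBP1P1 is uncertain.

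HSPA5, the main ER chaperone (BiP), was at 299, 319, 364 and 303 CPM in T-REX and at 255, 272, 239 and 252 CPM in DMSO. The lowest T-REX library was above the highest DMSO library, with a log2 fold change of 0.34 ± 0.073 and an adjusted p of 0.0120. MANF, a secreted ER stress factor, rose from 33.0 ± 0.885 to 45.4 ± 7.97 CPM, with T-REX replicate 3 the highest at 56.9 CPM. SELENOS, of the channel that exports proteins for degradation, rose by 0.27 ± 0.061 (adjusted p = 0.0117, 0.0524 without DMSO replicate 1). ERN1, the sensor that splices XBP1 mRNA, rose by 0.31 ± 0.072 (adjusted p = 0.0141, up to 0.0584 without DMSO replicates 1 or 2). SEC61B, a subunit of the translocation channel, rose by 0.35 ± 0.099 (adjusted p = 0.0392), and its T-REX values spread from 37.2 to 55.3 CPM. That call was lost without T-REX replicate 3, any 1 DMSO replicate or probe alone replicates 1 or 3, with adjusted p up to 0.111. The chaperone HSP90B1, at 0.10 ± 0.073, and DNAJB9, at 0.21 ± 0.098, had overlapping groups and did not pass the test. The sensor ATF6 stood at 0.09 and was not called either. Among 22 genes of the COPII coat, which carries cargo out of the ER, the cargo adaptor SEC24D rose from 68.3 ± 2.94 to 85.4 ± 5.08 CPM (adjusted p = 0.00298) while its relative SEC24B fell from 170 ± 6.71 to 140 ± 10.05 CPM (adjusted p = 0.00571).

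**Figure D3:**
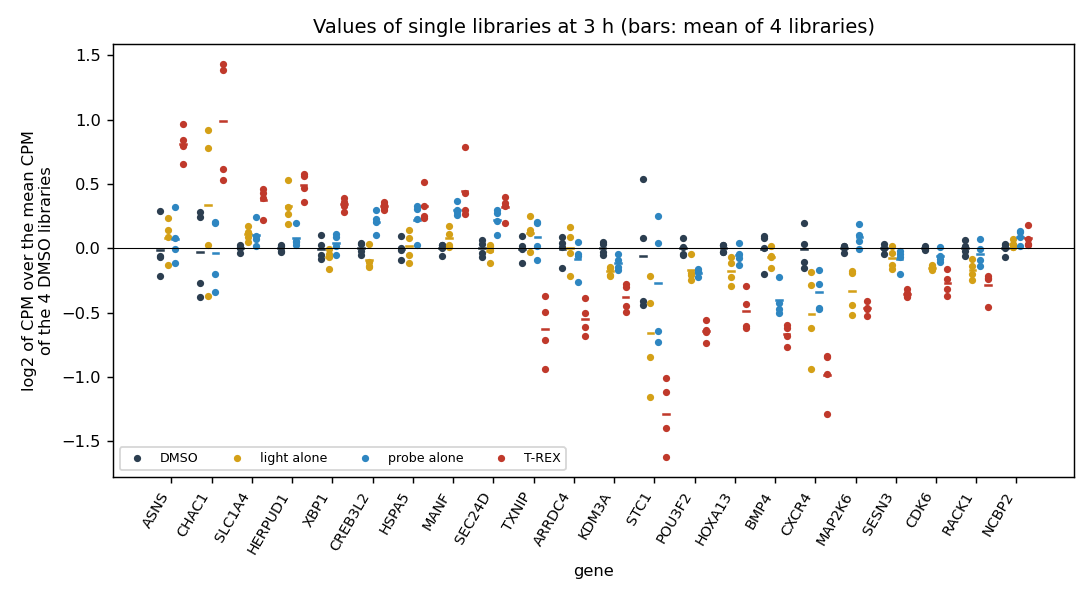
Log2 of CPM over the mean CPM of the 4 DMSO libraries (y axis) for 22 genes (x axis) at 3 h, with 1 point per library for DMSO, light alone, probe alone and T-REX and a bar at the mean of 4 libraries. The T-REX points of ASNS lie between 0.65 and 0.97 and all other libraries below them, whereas the CHAC1 points of light alone reach into those of T-REX and the NCBP2 points of all arms lie close together.

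The arrestin-domain genes of glucose sensing fell together. MondoA is a transcription factor that responds to glucose phosphates, and TXNIP and ARRDC4, which restrain glucose uptake, are its best-known targets. TXNIP (ENSG00000265972) was at 31.3, 39.8, 36.4 and 26.8 CPM in T-REX and at 47.4, 54.8, 51.2 and 51.9 CPM in DMSO. All T-REX libraries were lower, and the gene fell by 0.61 ± 0.10 on the log2 scale (adjusted p = 0.00196). ARRDC4 was at 31.1, 36.2, 33.5 and 29.6 CPM against 48.8, 50.5, 42.8 and 47.8 CPM and fell by 0.54 ± 0.086 (adjusted p = 0.00132). KLF10 fell by 0.21 ± 0.058 (adjusted p = 0.0323), a call that was lost without T-REX replicates 2 or 4 or any 1 DMSO replicate, with adjusted p up to 0.0976. Of the 13 genes in this list 3 fell and none rose, and the median of -0.03 turned positive in 2 alternatives. The carbohydrate response element shown for TXNIP was not in the window of ARRDC4.

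Genes of the hypoxia response, which include oxygen sensors, were lower for 8 of 39 members and higher for 1, with 26 of 39 below 0 and a median of -0.08. With a library left out, 4 to 9 were called lower (fewest without DMSO replicate 1), and 3 with only the T-REX and DMSO libraries. KDM3A, a histone demethylase, was at 133, 136, 117 and 120 CPM in T-REX and at 161, 168, 158 and 170 CPM in DMSO. The groups were separate, and KDM3A fell by 0.38 ± 0.051 on the log2 scale (adjusted p = 6.54e-04). BNIP3L, a mitophagy receptor, fell from 171 ± 13.1 to 137 ± 10.3 CPM (adjusted p = 0.00674), and MXI1, a partner of MAX, from 56.1 ± 3.10 to 47.4 ± 0.783 CPM (adjusted p = 0.0104). STC1, a secreted glycoprotein, had the most negative log2 fold change of the called genes. It was at 0.639, 0.747, 0.981 and 0.910 CPM in T-REX and at 2.87, 1.48, 1.45 and 2.08 CPM in DMSO, which are low levels with a wide DMSO spread. The log2 fold change was -1.26 ± 0.30 with an adjusted p of 0.0178, and without DMSO replicate 1 the adjusted p was 0.0819. PDK1, which holds back pyruvate oxidation, fell by 0.27 ± 0.060 (adjusted p = 0.0121, 0.0546 without DMSO replicate 4).

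The oxygen-sensing hydroxylases differed in direction. EGLN3 was at 6.88, 4.91, 8.62 and 7.99 CPM in T-REX and at 11.1, 9.77, 11.05 and 10.9 CPM in DMSO and fell by 0.59 ± 0.16 (adjusted p = 0.0285), while EGLN2 rose by 0.48 ± 0.14 (adjusted p = 0.0466). The EGLN3 call was lost without T-REX replicate 2 or DMSO replicates 1, 2 or 4, with adjusted p up to 0.0826. The EGLN2 call was lost in 10 of the 16 fits, among them those without T-REX replicates 2, 3 or 4 and DMSO replicates 1, 2 or 4, with adjusted p up to 0.151. VEGFA, the vessel growth factor, had overlapping values and a log2 fold change of -0.10 ± 0.067 that did not pass. Of 31 genes of glycolysis and pyruvate handling 1 rose, PFKFB2 (adjusted p = 0.0823 without DMSO replicate 1), and 2 fell, PDK1 and SLC16A1. The lactate carrier SLC16A1 lost its call in 12 of the 16 fits and kept it without T-REX replicate 3, DMSO replicate 3 and probe alone replicates 2 or 4.

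Cytosolic chaperones fell for 4 of 21 members and rose for none, with a median of -0.09. With a library left out 3 to 8 fell, and with only the T-REX and DMSO libraries 1 did. The list median was -0.13 for light alone against DMSO and 0.004 for T-REX against light alone. It was 0.003 for probe alone against DMSO and -0.14 for T-REX against probe alone. Among all genes 15.8% fell at a mean of 100 to 300 CPM, where HSPH1, DNAJB1 and CHORDC1 lie. HSPH1, which recycles HSP70, was at 222, 214, 233 and 190 CPM in T-REX and at 264, 260, 253 and 276 CPM in DMSO. The groups were separate, and HSPH1 fell by 0.29 ± 0.056 (adjusted p = 0.00523). DNAJB1, a co-chaperone, fell from 185 ± 5.92 to 149 ± 18.2 CPM (adjusted p = 0.00961) and CHORDC1, a partner of HSP90, from 226 ± 7.11 to 193 ± 14.05 CPM (adjusted p = 0.00972). HSPA8, the constitutive HSP70, fell by 0.20 ± 0.060 with overlapping groups (adjusted p = 0.0443) and lost that call in 13 of the 16 fits, all but those without T-REX replicate 3, light alone replicate 2 or probe alone replicate 2, with adjusted p up to 0.130. The GAANNTTC core shown for DNAJB1 was also in the windows of CHORDC1 and HSPA8 and not in that of HSPH1. None of 26 genes of the NRF2 electrophile defence was called, and their median of 0.01 changed sign in 4 alternatives. HMOX1, which degrades heme and is a known target of reactive aldehydes, was at 22.4, 27.0, 26.7 and 26.3 CPM in T-REX and at 23.7, 24.9, 24.7 and 20.9 CPM in DMSO. Those values overlapped, with a log2 fold change of 0.12 ± 0.083. The log2 fold changes of NQO1 (-0.00 ± 0.18), GCLM (0.04 ± 0.072) and TXNRD1 (-0.13 ± 0.054) did not pass either, and the cystine transporter SLC7A11 stood at 0.38 ± 0.11 with an adjusted p of 0.0616.

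Developmental transcription factors were among the firmest decreases. POU3F2 (BRN2, ENSG00000184486), a POU factor of neural progenitors, had the smallest p of all genes. It was at 52.3, 55.7, 59.2 and 56.4 CPM in T-REX and at 84.1, 88.0, 92.3 and 84.8 CPM in DMSO. The 2 groups were far apart relative to their spread, and the gene fell by 0.64 ± 0.054 on the log2 scale (adjusted p = 1.14e-06). Of 41 homeobox and other developmental regulators 8 fell and none rose, with 29 of 41 below 0 and a median of -0.09. Leaving out 1 library gave 3 to 9 that fell (fewest without DMSO replicate 1), and 1 fell with only the T-REX and DMSO libraries. SIX4 fell from 104 ± 3.28 to 85.7 ± 7.07 CPM and SOX4 from 203 ± 5.12 to 173 ± 11.5 CPM (adjusted p = 0.00587 and 0.00674). ZIC5, DACH1, EYA3 and EYA4 also fell, with log2 fold changes of -0.19 to -0.28. EYA proteins are coactivators of SIX4. The calls of these 4 were lost without DMSO replicate 1 and without further libraries, among them DMSO replicates 2 or 4 and T-REX replicates 2 or 4, with adjusted p up to 0.0942.

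Of 35 HOX genes, the body-axis regulators, 3 fell and none rose, with a median of 0.01 that changed sign in 3 alternatives, so the calls lay in single members. HOXA13 was at 36.4, 36.1, 45.3 and 41.0 CPM in T-REX and at 56.5, 56.4, 54.4 and 54.2 CPM in DMSO, with no overlap, and fell by 0.48 ± 0.070 (adjusted p = 0.00104). HOXD13 fell from 111 ± 4.55 to 84.3 ± 1.19 CPM (adjusted p = 0.00132) and HOXA9 from 44.0 ± 1.78 to 35.2 ± 2.81 CPM (adjusted p = 0.0111). HOXA13 and HOXD13 belong to the same paralogue group at the posterior end of their clusters. NFYA, the regulatory subunit of a factor that binds CCAAT, fell from 70.7 ± 3.02 to 56.9 ± 0.714 CPM (adjusted p = 0.00132).

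Among 40 genes of nuclear receptors and retinoid handling 5 fell and 1 rose, with 3 lower without T-REX replicate 2 or DMSO replicates 1 or 2 and with only the T-REX and DMSO libraries. The mineralocorticoid receptor NR3C2 fell from 46.4 ± 0.958 to 37.7 ± 1.93 CPM (adjusted p = 0.00301) and TIPARP, which ADP-ribosylates the dioxin receptor, from 93.0 ± 3.13 to 72.0 ± 2.89 CPM (adjusted p = 0.00330). The retinoic acid receptor RARB was at 19.8, 20.5, 17.3 and 17.5 CPM in T-REX and at 26.4, 25.1, 23.9 and 24.7 CPM in DMSO and fell by 0.41 ± 0.088 (adjusted p = 0.00944). For RARB the control arms themselves stood apart: the log2 fold change of T-REX was 0.23 ± 0.090 against light alone and -0.96 ± 0.088 against probe alone. NR4A2, an immediate early nuclear receptor, was the 1 that rose, and its call was lost in 13 of the 16 fits, all but those without DMSO replicate 4 or probe alone replicates 2 or 4, with adjusted p up to 0.151. It was also the only 1 of 28 immediate early genes called.

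Single receptors and ligands of cell signalling fell. CXCR4, the receptor of the chemokine CXCL12, was at 5.68, 7.72, 7.78 and 7.04 CPM in T-REX and at 14.2, 12.5, 12.9 and 15.9 CPM in DMSO. No library of either group came near the other group, and the gene fell by 0.97 ± 0.15 on the log2 scale (adjusted p = 0.00112). BMP4, a ligand of the BMP pathway, was at 12.8, 11.4, 12.5 and 12.1 CPM against 20.4, 19.4, 20.7 and 16.8 CPM and fell by 0.66 ± 0.090 (adjusted p = 6.54e-04). Of 34 genes of BMP and TGF-beta signalling 7 fell and none rose, with a median of -0.08, 4 to 7 fell with a library left out (fewest without DMSO replicates 1 or 2), and 2 fell with only the T-REX and DMSO libraries. Beside BMP4 these are the receptors TGFBR3, BMPR1A, BMPR2 and TGFBR1, the target ID2 and the repressor SKIL. BMPR2 lost its call without T-REX replicate 2 or DMSO replicate 1 (adjusted p up to 0.0647), ID2 without T-REX replicate 2 or DMSO replicate 2 (up to 0.0724), TGFBR1 in 10 of the 16 fits (up to 0.147) and SKIL in all but those without T-REX replicates 1 or 2 (up to 0.129). TGFBR3 was at 37, 35.02, 35.8 and 36.3 CPM in T-REX and at 45, 45.6, 44.1 and 45.8 CPM in DMSO and fell by 0.33 ± 0.051 (adjusted p = 0.00132). BMPR1A fell from 93.4 ± 3.77 to 77.3 ± 6.12 CPM (adjusted p = 0.00674).

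In Wnt signalling 4 of 33 genes fell and none rose (1 without DMSO replicates 2 or 4, and 1 with only the T-REX and DMSO libraries), all of them cell-surface receptors: LGR4, FZD3, TNFRSF19 and ROR1. LGR4, the R-spondin receptor, fell from 92.7 ± 1.28 to 76.2 ± 3.83 CPM (adjusted p = 0.00177), and the calls of the other 3 were lost without DMSO replicates 2 or 4 and, for some, DMSO replicate 1 or T-REX replicates 2, 3 or 4, with adjusted p up to 0.120. Of 41 genes of MAP kinase cascades 3 fell and 1 rose, and 1 fell and none rose with only the T-REX and DMSO libraries. MAP2K6, a kinase of the p38 branch, was at 28.6, 26.3, 27.3 and 27.5 CPM in T-REX and at 38.4, 38.3, 36.95 and 37.9 CPM in DMSO. Both groups were tight and separate, with a log2 fold change of -0.47 ± 0.074 (adjusted p = 0.00132). The feedback inhibitor SPRY1 fell by 0.49 ± 0.10 (adjusted p = 0.00799). The kinase receptor KIT fell from 18.5 ± 1.03 to 14.4 ± 0.361 CPM (adjusted p = 0.0104), and SESN3, a sestrin of amino acid and stress signalling to mTORC1, fell from 200 ± 4.24 to 157 ± 2.80 CPM (adjusted p = 6.54e-04). SESN3 was the 1 called gene of 31 for mTORC1, S6 kinase and the sestrins.

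A minority of cell cycle genes fell and none rose. Of 28 G1 cyclins, kinases and inhibitors 6 fell and none rose, with a median of -0.11, and of 40 genes of mitosis and cytokinesis 11 fell and none rose, with 33 of 40 below 0 and a median of -0.10. With a library left out 3 to 7 and 3 to 14 of them fell (fewest without DMSO replicate 2), and with only the T-REX and DMSO libraries 2 and 3 did. The median of the mitosis list was -0.09 for light alone against DMSO and -0.03 for T-REX against light alone. That of the G1 list was 0.01 for light alone against DMSO and -0.10 for T-REX against light alone. T-REX against probe alone gave -0.13 for the mitosis list and -0.06 for the G1 list. Many of these genes are abundant, and among all genes 15.8% fell at a mean of 100 to 300 CPM and 23.4% above that. CDK6, the partner of D-type cyclins, was at 163, 147, 141 and 154 CPM in T-REX and at 181, 182, 181 and 185 CPM in DMSO. Every T-REX library was lower, and CDK6 fell by 0.27 ± 0.045 (adjusted p = 0.00196). Cyclin D2 (CCND2) fell from 274 ± 15.2 to 225 ± 5.06 CPM (adjusted p = 0.00274) and E2F3, a factor that opens S phase, from 121 ± 5.72 to 105 ± 3.84 CPM (adjusted p = 0.00885). KIF20A, a motor of cytokinesis, fell from 109 ± 3.10 to 87.5 ± 2.23 CPM (adjusted p = 0.00136), the mitotic kinase CDK1 from 217 ± 13.7 to 175 ± 10.5 CPM (adjusted p = 0.00829) and ANLN, a scaffold of the cleavage furrow, from 343 ± 19.2 to 289 ± 15.6 CPM (adjusted p = 0.00553). Of 27 p53 targets, TP53I3 was called, rising from 7.42 ± 0.645 to 10.98 ± 1.52 CPM (adjusted p = 0.00553), while CDKN1A (p21) overlapped between the groups with a log2 fold change of 0.09 ± 0.20.

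**Figure D4:**
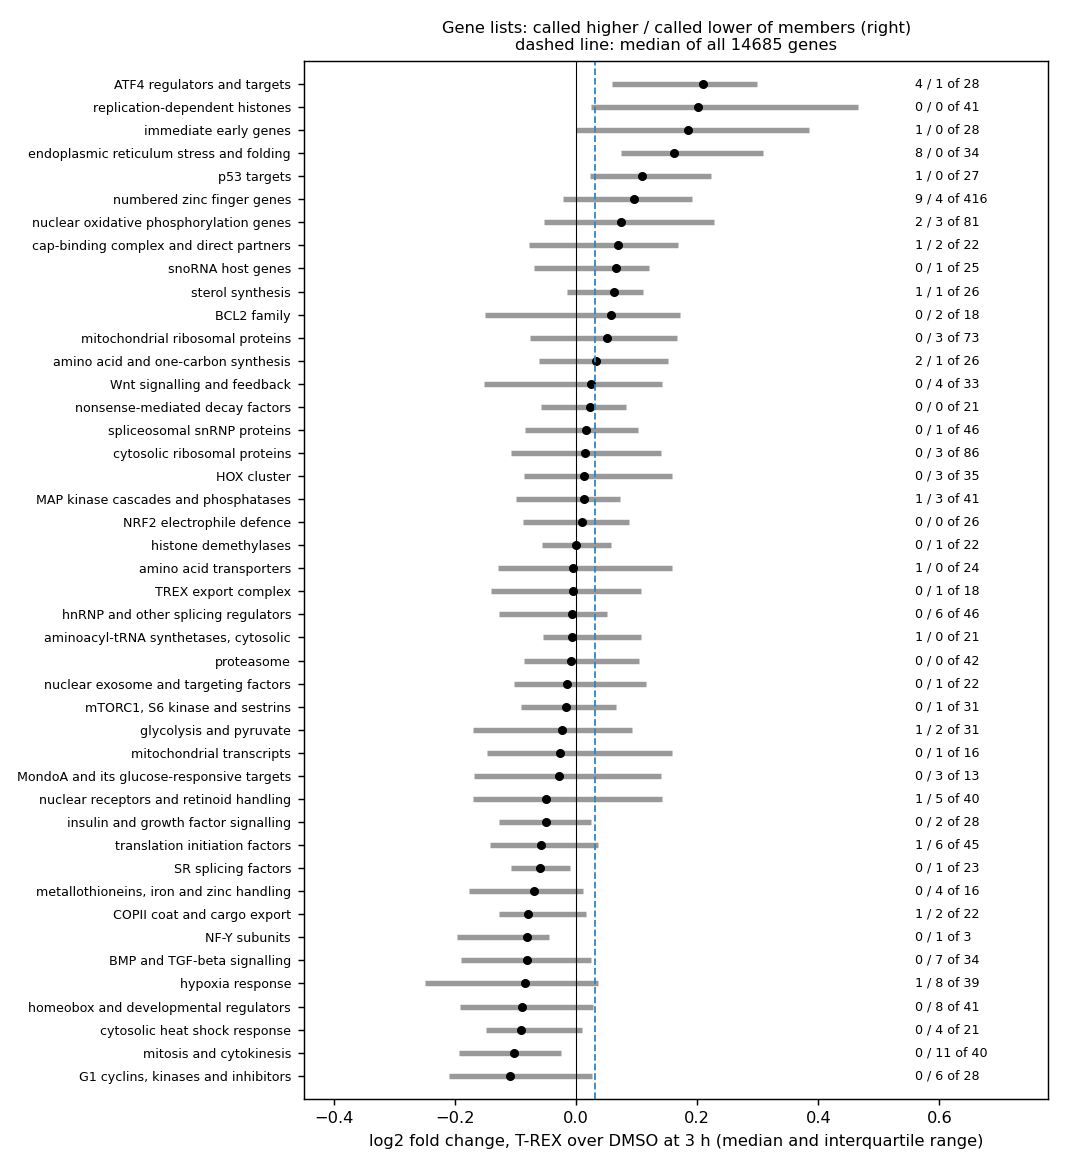
Median (point) and interquartile range (bar) of the log2 fold change of T-REX over DMSO at 3 h (x axis) for each gene list (y axis), with the number called higher and lower of all members at the right and the median of all 14685 genes as a dashed line. The ATF4 and ER lists lie above the dashed line and the mitosis and G1 lists below it, while most lists straddle it with few calls.

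mRNAs of the translation machinery fell for single members. Of 45 initiation factors 6 fell and 1 rose, with a median of -0.06. Without 1 library in turn 2 to 8 fell (fewest without T-REX replicate 4 or DMSO replicate 1), and with only the T-REX and DMSO libraries 1 fell and none rose. Among all genes 15.8% fell at a mean of 100 to 300 CPM and 23.4% at 300 CPM or more. EIF3E and PABPC1 lie in the higher step. EIF3E was at 545, 528, 487 and 487 CPM in T-REX and at 625, 659, 622 and 646 CPM in DMSO. The groups were separate, and EIF3E fell by 0.32 ± 0.050 (adjusted p = 0.00132), while another subunit of the same complex, EIF3F, rose from 133 ± 5.86 to 155 ± 7.60 CPM (adjusted p = 0.00773). PABPC1, which coats poly(A) tails, fell from 2052 ± 85.5 to 1766 ± 17.4 CPM (adjusted p = 0.00976), and EIF4E, the cytoplasmic cap-binding protein, fell by 0.21 ± 0.062 with an adjusted p of 0.0496, at the threshold, and lost the call in all but the fits without T-REX replicates 1 or 2 or probe alone replicate 2 (up to 0.135). Of 86 cytosolic ribosomal protein genes 3 fell and none rose (2 to 9 fell with a library left out), with a median of 0.02 that changed sign in 1 alternative. RACK1, a scaffold on the small subunit, was at 1191, 1394, 1410 and 1384 CPM against 1710, 1607, 1567 and 1655 CPM and fell by 0.28 ± 0.059 (adjusted p = 0.00783). RPS3A fell from 739 ± 20.04 to 602 ± 30.3 CPM (adjusted p = 0.00811), and RPL7A was the third. RPL7A lost its call without T-REX replicates 1, 3 or 4 or DMSO replicates 1, 2 or 4, with adjusted p up to 0.101. Many ribosomal protein genes have processed pseudogenes, and how the counting assigned reads that match both is not given in the sources used here.

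Among splicing regulators, 6 of 46 hnRNP and related genes fell and none rose, with a median of -0.01 that changed sign in 4 alternatives. Leaving out a library gave 1 to 8 lower (fewest without DMSO replicate 1), and 1 fell with only the T-REX and DMSO libraries. Among all genes 4.54% fell, with 15.8% at a mean of 100 to 300 CPM and 23.4% at 300 CPM or more. QKI, which regulates splicing and circular RNA, fell from 316 ± 7.86 to 263 ± 12.1 CPM (adjusted p = 0.00280), and HNRNPF fell by 0.20 ± 0.046 (adjusted p = 0.0140, 0.0561 without DMSO replicate 1). Of 23 SR proteins 1 fell and of 46 spliceosomal snRNP proteins 1 fell. Of 16 genes for metallothioneins and for iron and zinc handling 4 fell and none rose, with 2 lower without T-REX replicates 2 or 4 or DMSO replicates 1, 2 or 4 and 1 with only the T-REX and DMSO libraries. The shares of all genes given above stand beside this count too, and the part of level in it was not tested. The transferrin receptor TFRC, which brings iron into the cell, was at 310, 291, 293 and 265 CPM in T-REX and at 360, 374, 345 and 378 CPM in DMSO. All T-REX libraries were lower, and TFRC fell by 0.33 ± 0.049 (adjusted p = 0.00104). The zinc importer SLC39A10 fell from 96.2 ± 8.25 to 78.5 ± 2.66 CPM (adjusted p = 0.00493), and the iron exporter SLC40A1 fell from 4.20 ± 0.685 to 2.65 ± 0.306 CPM (adjusted p = 0.0348). The SLC40A1 call was lost without T-REX replicates 1, 2 or 4 or DMSO replicates 1, 2 or 4, with adjusted p up to 0.111. Several lists held no call or few: none of 42 proteasome genes and none of 41 replication-dependent histone genes was called, and of 81 nuclear genes of oxidative phosphorylation 2 rose and 3 fell (0 and 1 without DMSO replicate 1).

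Several genes outside these lists had some of the smallest p. SLITRK5, a neuronal adhesion receptor, was at 85.2, 96.0, 87.2 and 94.0 CPM in T-REX and at 130, 127, 116 and 126 CPM in DMSO. The groups did not come near each other, and the gene fell by 0.46 ± 0.053 (adjusted p = 1.35e-04). SLC5A3, the myo-inositol transporter, fell from 161 ± 5.28 to 127 ± 3.91 CPM (adjusted p = 2.63e-04) and KCTD12, an auxiliary subunit of GABA-B receptors, from 147 ± 8.71 to 109 ± 7.43 CPM (adjusted p = 0.00132). Among transcripts that rose, the antisense RNA PCGF3-AS1 was at 15.7, 15.3, 15.6 and 12.8 CPM against 9.74, 10.5, 9.76 and 9.17 CPM, a log2 fold change of 0.60 ± 0.095 (adjusted p = 0.00132). The library kit keeps strand, but the strand setting of the counting is not given in the sources used here, so reads of an antisense gene and its partner may be mixed. COLQ, the collagen tail of acetylcholinesterase, rose from 10.6 ± 0.726 to 14.9 ± 1.35 CPM (adjusted p = 0.00674). AXL, a receptor kinase, rose from 0.742 ± 0.196 to 1.55 ± 0.477 CPM, a log2 fold change of 1.06 ± 0.29 (adjusted p = 0.0351) that was lost without T-REX replicates 2 or 4 or DMSO replicates 1, 2 or 4, with adjusted p up to 0.120. The largest increases were found at low levels. Beside CHAC1, AXL and ASNS, those with separate groups include the long noncoding gene ENSG00000262202, at 2.71, 2.49, 4.0 and 2.22 CPM in T-REX and at 1.17, 1.18, 1.49 and 1.64 CPM in DMSO, with a log2 fold change of 1.06 ± 0.22 (adjusted p = 0.00863). CD226, an adhesion receptor of lymphocytes, had a log2 fold change of 0.97 ± 0.24 from 1.33 ± 0.338 CPM (adjusted p = 0.0196), and BARHL2, a homeobox factor of neurons, 0.91 ± 0.24 from 1.29 ± 0.0965 CPM (adjusted p = 0.0274). CD226 lost its call without T-REX replicate 4 or DMSO replicates 1 or 2 (up to 0.0710), and BARHL2 without T-REX replicates 2 or 3 or any 1 DMSO replicate (up to 0.0749). Of the 10 largest decreases with separate groups, those of CXCR4, BMP4, POU3F2, TXNIP, ARRDC4 and EGLN3 had a mean above 10 CPM in the DMSO libraries. Of 30 genes that the paper names for its RNA-seq or labels in its 3 h plot, 6 rose and 18 fell here. The paper drew its top-ranked genes from all times and controls of the series, these libraries included. That list is therefore not independent evidence of a direction.

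Noncoding transcripts rose more often than they fell, unlike protein-coding genes. Of 1725 long noncoding or antisense genes 42 rose and 10 fell, with a median log2 fold change of 0.13 and 72.6% above 0. Of 639 pseudogenes 11 rose and none fell, with a median of 0.15. Of 11874 protein-coding genes 153 rose and 656 fell, with a median of 0.01. These classes differ in level: the median over genes of the mean CPM was 3.71 for long noncoding, 3.40 for pseudogenes and 30.1 for protein-coding genes. Within mean CPM of 10 to 100, 18 of 324 long noncoding genes rose and 3 fell, with a median of 0.09, and 89 of 6671 protein-coding genes rose and 264 fell, with a median of 0.01. Numbered zinc finger genes, a large family of transcriptional repressors, also lay above 0, with 298 of 416 above it and a median of 0.09, yet 9 rose and 4 fell by the test. Without DMSO replicate 1 the numbers were 1 and 1, and with only the T-REX and DMSO libraries 0 and 1. In the main fit 3.13% of the family were called, against 5.99% of all genes. All genes at 3 to 10 CPM had a median of 0.12 with 73.4% above 0, and those at 10 to 30 CPM 0.06 with 64.7%. The family was not matched to other genes for level.

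Level and direction moved together across all genes. The median log2 fold change was 0.18 for the 2136 genes under 3 CPM, 0.12 at 3 to 10 CPM, 0.06 at 10 to 30, -0.01 at 30 to 100, -0.07 at 100 to 300 and -0.10 for the 427 genes of at least 300 CPM. The share of genes that fell rose along the same steps from 0.0936% to 23.4%, and the share that rose went from 1.26% to 0.468%. Precision moved with level as well: the median standard error was 0.235 in the lowest step and 0.0529 in the highest. For single libraries, the median of the lowest step minus that of the highest, each against the mean of the DMSO libraries, was 0.289, 0.188, 0.247 and 0.438 in the T-REX libraries. For DMSO libraries, each against the mean of the other 3, the same difference was 0.0570, -0.0740, 0.105 and -0.0455. It was 0.0859 to 0.174 in the light alone libraries and -0.0939 to 0.135 in the probe alone libraries. The difference in the fit was 0.29, and 0.23 without T-REX replicate 4. The part of RNA quality or library preparation in this trend was not tested. The counts of called members in the gene lists were not matched for level.

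The same T-REX libraries were also set against light alone and probe alone, which differ from T-REX by fewer steps. Against light alone 29 of the 14685 genes were called (0.197%) and against probe alone 154 (1.05%). These comparisons share the T-REX libraries with that against DMSO, so their values are given side by side. POU3F2 stood at -0.64 against DMSO, -0.47 ± 0.054 against light and -0.46 ± 0.054 against probe, and all 3 passed. XBP1 stood at 0.34, 0.41 ± 0.053 and 0.30 ± 0.053, ASNS at 0.82, 0.73 ± 0.13 and 0.74 ± 0.13, TXNIP at -0.61, -0.74 ± 0.10 and -0.70 ± 0.099, ARRDC4 at -0.54, -0.55 ± 0.086 and -0.46 ± 0.086, and SESN3 at -0.35, -0.28 ± 0.048 and -0.27 ± 0.048, and these passed in all 3 comparisons as well. PCGF3-AS1, at 0.60, 0.62 ± 0.095 and 0.50 ± 0.094, was another.

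Most calls against DMSO were not calls against the other controls. Of the 213 genes that rose, 11 were also called higher against light, 19 against probe and 4 against both, and of the 667 that fell, 14, 106 and 7 were also called lower. CREB3L2 stood at 0.42 ± 0.048 against light (adjusted p = 1.60e-04) and at 0.12 ± 0.048 against probe (adjusted p = 0.191). SEC24D stood at 0.34 ± 0.057 and 0.10 ± 0.057, and BMP4 at -0.60 ± 0.090 and -0.26 ± 0.090, of which the value against light passed. HERPUD1 was the reverse, at 0.16 ± 0.071 against light (adjusted p = 0.282) and 0.41 ± 0.071 against probe (adjusted p = 0.00817), and so was MAP2K6, at -0.14 ± 0.074 and -0.55 ± 0.074. HSPA5 stood at 0.32 ± 0.073 and 0.11 ± 0.073 and MANF at 0.38 ± 0.085 and 0.16 ± 0.085, and none of these values passed. CDK1 stood at -0.14 ± 0.065 against light and -0.21 ± 0.065 against probe, and neither value passed. Whether these differences from the DMSO comparison exceed their errors was not tested.

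At 6 h and 12 h other libraries of the same arms gave the comparison again. At 6 h 26 genes were higher (0.177%) and 35 lower (0.238%), and at 12 h 601 were higher (4.09%) and 997 lower (6.79%). Of the 213 genes that rose at 3 h, 7 also rose at 6 h, which is 3.29% of the 3 h list and 26.9% of the 6 h list, and 63 rose at 12 h, which is 29.6% and 10.5%. Of the 667 that fell, 13 fell at 6 h (1.95% and 37.1%) and 305 fell at 12 h (45.7% and 30.6%). Opposite calls were 0 at 6 h and 2 at 12 h. Of the genes that rose at 3 h, 79.8% were above 0 at 6 h and 91.1% at 12 h, against 49.4% and 50.7% of all genes, and of those that fell, 70.2% and 96.0% were below 0 against 50.6% and 49.3%. The genes that fell at 3 h had a median level of 117 CPM, against 20.5 CPM for all genes. Their median log2 fold change was -0.04 at 6 h and -0.19 at 12 h. For all genes at 100 to 300 CPM it was -0.01 and -0.04, and at 300 CPM or more -0.02 and -0.07. The shares were not matched for level.

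For the leading genes the values at the 3 times are given side by side. XBP1 stood at 0.34 ± 0.053, 0.37 ± 0.063 and 0.41 ± 0.059 at 3, 6 and 12 h, and CREB3L2 at 0.33 ± 0.048, 0.42 ± 0.052 and 0.28 ± 0.059. These values passed at all 3 times, as did those of SLC1A4 (0.38, 0.45 and 0.59), SEC24D (0.32, 0.55 and 0.27), TXNIP (-0.61, -0.88 and -0.94), ARRDC4 (-0.54, -0.57 and -0.81), KDM3A (-0.38, -0.32 and -0.44), POU3F2 (-0.64, -0.37 and -0.74), STC1 (-1.26, -1.65 and -1.06), RARB (-0.41, -0.56 and -1.02), SOX4 (-0.23, -0.36 and -0.54), ID2 (-0.28, -0.35 and -0.37) and MAP2K6 (-0.47, -0.37 and -0.59). HERPUD1 stood at 0.50 ± 0.072 at 3 h and at 0.06 ± 0.076 and 0.04 ± 0.079 later, and ASNS at 0.82 ± 0.13, 0.39 ± 0.14 and 0.33 ± 0.16, of which the 3 h values passed. The interaction of time with treatment did not pass for either gene in the quasi-likelihood fit, and DESeq2 called it for HERPUD1 at 12 h against 3 h. DESeq2 also called it for RARB at 12 h and for SLITRK5 at 6 h. SLITRK5 (-0.46, -0.01 and -0.38) and CXCR4 (-0.97, -0.64 and -1.10) passed at 3 h and 12 h.

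Over all genes, the T-REX effect differed between 6 h and 3 h for 2 genes (0.0136%) and between 12 h and 3 h for 1 gene (0.00681%), with 2259 and 1425 genes at an unadjusted p of at most 0.05. CCND2 stood at -0.29 ± 0.051 at 3 h and at 0.14 ± 0.059 at 6 h, a difference of 0.43 with an adjusted p of 0.0219. MAP1B, a microtubule protein of neurons, was not called at 3 h (-0.04 ± 0.043) and rose at 6 h (0.30 ± 0.052), a difference of 0.34 with an adjusted p of 0.0356. TIPARP fell at 3 h (-0.37 ± 0.067) and rose at 12 h (0.25 ± 0.064), a difference of 0.62 with an adjusted p of 0.00558. In lists, 9 of the 28 ATF4 regulators and targets rose at 12 h and none at 6 h, and 16 of the 39 hypoxia genes fell at 12 h and 2 at 6 h. Of the 34 ER genes 2 rose at 6 h, and 5 rose and 2 fell at 12 h. Of the 40 mitosis genes none was called at 6 h and 4 fell at 12 h. HMOX1 stood at 0.12 at 3 h and at 0.70 at 12 h, where it passed. The values of each time come from the fit of that time's 16 libraries, and the differences between times from a fit of all 48.

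**Figure D5:**
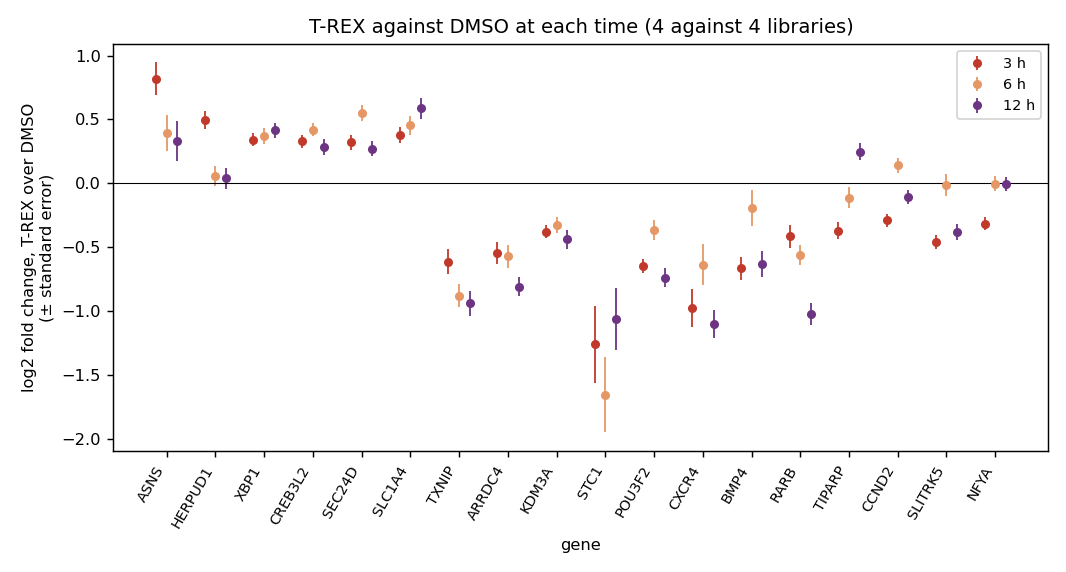
Log2 fold change of T-REX over DMSO (y axis, bars are standard errors, 4 against 4 libraries at each time) for 18 genes (x axis) at 3, 6 and 12 h. XBP1 and CREB3L2 lie between 0.28 and 0.42 at all times, HERPUD1 stands at 0.50 at 3 h and at 0.06 and 0.04 later, and TIPARP changes from -0.37 to 0.25.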

How the data were processed

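RNA was sequenced from HEK293T cells 3, 6 and 12 h after the reaction, in stranded libraries made after ribosomal RNA depletion. The authors deposited read counts per Ensembl gene for each time, without normalization. They also deposited log2 CPM and, per library, 2 score columns of unwanted variation (RUV factors), whose method is not stated. Read trimming with cutadapt and the programs TopHat and Cufflinks stand in the study's reporting form. The counter and genome build of the counts are not given in the sources used here. The RUV-transformed expression tables were not used.

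Counts were fitted in edgeR 4.0.16 (R 4.3.3) with TMM factors, filterByExpr, which removed 0 genes, robust dispersions and the quasi-likelihood test. All 16 libraries of a time entered 1 fit, and p-values were adjusted by Benjamini-Hochberg over all 14685 genes. A gene was called at an adjusted p of at most 0.05. SE is the log2 fold change over the square root of F. Alternatives used DESeq2 1.42.0, limma 3.58.1, other scalings and filters, a replicate block, the RUV factors, fewer libraries, or the fit without each library. Gene classes came from GENCODE 29 and promoter windows from RefSeq. Scripts were tested on simulated data.

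Genes were named by rank within each list and over all genes, by the largest non-overlapping changes, by mean CPM and because the study names them. List members that were not called were named for their role. The comparison, lists and genes were chosen with earlier results of these data known. Some items are not reported here.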

Additional observations from a re-analysis of the deposited data

Results flagged for a closer look

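Among 102 groups of 4 libraries, 5 held a value far from the other 3, and chance alone gives about 1 in 20. EGLN3 was at 9.77 CPM in DMSO replicate 2 and at 10.9 to 11.1 CPM in the other DMSO libraries. RACK1 was at 1191 CPM in T-REX replicate 1 against 1384 to 1410 CPM in the other T-REX libraries. EEF1A1, an elongation factor of translation, was at 2810 CPM in DMSO replicate 3 against 3012 to 3028 CPM. RPS6KB1 was at 163 CPM in DMSO replicate 3 against 178 to 181 CPM. DMSO replicate 1 held 28328178 counts, and the other DMSO libraries 29543643 to 29747193.

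For 3 genes the T-REX effect differed between times by the interaction test of edgeR. For CCND2 the effect at 6 h exceeded that at 3 h by 0.43 on the log2 scale (adjusted p = 0.0219), and for MAP1B by 0.34 (adjusted p = 0.0356). For TIPARP the effect at 12 h exceeded that at 3 h by 0.62 (adjusted p = 0.00558).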

How the results depend on the processing

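The number of calls and their balance of higher and lower moved with the processing. No named gene that was called at 3 h changed sign in any of 26 alternatives. These reuse the same libraries and genes picked as called, so they say little about the direction in new libraries. Of the 880 called genes 156, 19 higher and 137 lower, stayed called in all 26 alternatives. With the RUV factors as covariates 3061 genes were called (1333 higher, 1728 lower). When only the T-REX and DMSO libraries were fitted, 187 were called (24 higher, 163 lower). Upper-quartile factors left 403 lower calls, and library totals without NCBP1 gave 359 higher and 270 lower. Scaling moved the median of all genes by at most 0.05, and the medians of 21 of 45 lists changed sign in an alternative, of which that of the histones was 0.20 and the others were at most 0.0502 in size. DESeq2 called 1200 genes, and 1995 of its adjusted p were NA. Without a library, 295 to 1137 genes were called, 53 to 375 higher and 242 to 873 lower. The causes were not tested.

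At 6 h (61 called) DESeq2 gave 288, the 2 arms alone 128 and the fits without a library 11 (T-REX replicate 2) to 138 (DMSO replicate 4). At 12 h (1598 called) the 2 arms alone gave 366, DESeq2 2069 and the fits without a library 795 (T-REX replicate 1) to 2655 (DMSO replicate 4). For the difference between 6 h and 3 h, the T-REX and DMSO libraries of both times alone gave 0 called genes in edgeR, where 1897 had an unadjusted p up to 0.05, and DESeq2 gave 89. For 12 h against 3 h they gave 1, TIPARP, and DESeq2 gave 28, HERPUD1 and RARB among them.

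With the replicate number as a block 1020 genes were called at 3 h, 53 at 6 h and 1488 at 12 h. Same-numbered T-REX and DMSO libraries deviated together with correlations of -0.284, 0.428, 0.576 and -0.519, and not every library correlated best with its own number. Correlations across numbers were also large, such as 0.623 for T-REX replicate 1 with DMSO replicate 4 and -0.639 with DMSO replicate 3. These values therefore cannot decide whether the numbers pair the libraries.

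Depth of 23952455 counts or more per library limits the lowest genes, whose median SE was 0.235 under 3 CPM. Changes smaller than 0.13 on the log2 scale were not called.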
